A study of Homo sapiens with 6 samples.

Results

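The genes described here are 10 transferases: GSTP1, GSTA4, GSTM2, GSTM3, GSTM4, GSTK1, GSTO1, GSTZ1, MGST2 and MGST3. They were listed by symbol and chosen by measured values, namely the control and resistant levels of GSTP1 in these 6 libraries, to ask whether relatives were higher where GSTP1 was missing. All 10 matched a gene ID among the 28395 in the file. RNA came from 6 libraries of the human triple-negative breast cancer line MDA-MB-468. The 3 control libraries are of the parental line, and the 3 resistant libraries are of MDA-MB-468-PR, a derivative kept in 3 to 4.5 nM paclitaxel for 2 months. All 6 samples were untreated at harvest. The resistant libraries come from this single derivative, so that an effect of the drug cannot be told apart from other changes of its culture. Control replicate 1 and resistant replicate 1 carry a 2020 batch label and the other 4 libraries a 2021 label. Total counts ran from 37889818 to 93680129 per library. Epithelial markers were abundant (EPCAM at 367 to 663 CPM, which are counts scaled to library depth), and of the receptors that define triple-negative tumours PGR was listed at 0, ESR1 was at 0.738 to 4.55 CPM and ERBB2 at 93.5 to 138 CPM. Of 3 leukocyte markers PTPRC and CD3E stayed at or below 0.09 CPM and CD14 was at 6.51 to 18.7 CPM. Of 4 fibroblast markers COL1A2, DCN and PDGFRB stayed at or below 0.165 CPM and COL1A1 was at 22.4 to 30.3 CPM. The summed levels of both lists overlapped between the groups, at 6.59 to 18.7 CPM in control and 9.26 to 15.9 CPM in resistant libraries for leukocyte markers and at 23.2 to 30.5 and 22.5 to 26.2 CPM for fibroblast markers. Their part in the results was not tested.

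Glutathione transferases join the tripeptide glutathione to electrophilic compounds, which makes these more soluble and easier to export. The cytosolic enzymes fall into classes named by a letter (alpha, mu, omega, pi, zeta), GSTK1 is the kappa class enzyme of mitochondria and peroxisomes, and the MGST enzymes belong to an unrelated family of membrane proteins. GSTP1, the pi class enzyme, is known as the main transferase of many epithelial tumours and as a gene that can be silent in cancers of hormone-responsive tissue.

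The sequence just upstream of the GSTP1 start is shown because its RNA is the one that was missing. GSTZ1 is shown beside it because it has as many CpG dinucleotides in the same span while its RNA was present in every library, and GSTM3 because it has the fewest of the members. Capitals mark CpG dinucleotides, and each line holds the 250 bases before the RefSeq start on GRCh38.p14, read 5′ to 3′ (GSTP1 chr11:67583562-67583811, plus strand; GSTZ1 chr14:77320786-77321035, plus strand; GSTM3 chr1:109741039-109741288, minus strand).
GSTP1: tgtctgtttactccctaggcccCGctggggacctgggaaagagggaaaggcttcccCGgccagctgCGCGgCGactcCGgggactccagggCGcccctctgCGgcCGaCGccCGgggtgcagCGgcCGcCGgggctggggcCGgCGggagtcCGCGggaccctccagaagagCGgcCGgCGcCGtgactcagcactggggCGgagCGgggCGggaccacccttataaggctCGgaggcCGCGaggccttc
GSTZ1: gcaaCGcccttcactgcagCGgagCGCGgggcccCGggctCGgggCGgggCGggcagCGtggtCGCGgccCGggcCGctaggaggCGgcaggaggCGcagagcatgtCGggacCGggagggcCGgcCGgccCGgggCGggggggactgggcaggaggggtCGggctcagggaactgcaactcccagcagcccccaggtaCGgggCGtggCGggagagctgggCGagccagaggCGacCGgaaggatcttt
GSTM3: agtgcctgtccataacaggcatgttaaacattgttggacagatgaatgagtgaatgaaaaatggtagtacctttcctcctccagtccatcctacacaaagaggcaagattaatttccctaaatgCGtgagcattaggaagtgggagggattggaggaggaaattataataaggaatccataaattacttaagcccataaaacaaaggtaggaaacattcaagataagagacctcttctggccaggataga
GSTP1 and GSTZ1 each held 28 CpG dinucleotides in these 250 bases and GSTM3 held 1. Methylation is not analysed here.

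RefSeq promoter windows, which run from 250 bases before to 50 after a start, were found for 9 of the 10 members (all but MGST2). For each gene the first listed window was used, while the share over all windows counts every listed start. The GSTO1 window (chr10:104254642-104254941) belongs to a start inside the gene, not to the outermost start given below. The GSTP1 window held 36 CpG dinucleotides, and 12.7% of 35116 windows of the same length held at least as many. The median was 19 over the 9 members and 14 over all windows. The letters TGACTCA, the AP-1 motif, were found on either strand in the GSTP1 window alone of the 9, and in 4.95% of all windows. They start at position -66 from the GSTP1 start. The core of the antioxidant response element, TGACNNNGC, starts at the same base there and overlaps it. It occurred in 3 of the 9 windows (GSTP1, GSTA4 and GSTO1) and in 13.3% of all. GC boxes, GGGCGG, occurred in 7 of the 9 and in 45% of all, with copies at -53 and -43 in GSTP1.

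GSTP1 (Entrez gene 2950, chromosome 11, 67583812 to 67586653, GRCh38) was covered by 418, 1342 and 425 counts in the parental libraries, in replicate order, against 0, 1 and 1 in the resistant ones. Scaled for depth this was 10.4, 24 and 6.27 CPM in the control libraries. No resistant library exceeded 0.015 CPM, below the 0.0312 to 0.0808 CPM that 3 counts, the limit a count of 0 allows, correspond to in these libraries. The groups were far apart in both batches. In 2021 the control to resistant ratio of summed counts was 1160 (95% interval 322 to 9620). In 2020, with 0 counts in the resistant library, the lower end of the 95% interval was 104. Against a limit of 3 counts in that library the ratio was 129. These intervals cover counting error only. GSTP1 was listed for this fall, so these values describe it and carry no test. In bulk RNA, fewer cells with the transcript and less transcript per cell cannot be told apart.

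The parental level of GSTP1 was itself uneven. Control replicate 2 held 3.83 times as much as control replicate 3 of the same 2021 batch (95% counting interval 3.43 to 4.28) and 2.31 times as much as control replicate 1 (2.07 to 2.58). On the log2 CPM scale the 3 control libraries spanned 1.93, a wider range than in 99.1% of the 10430 tested genes with at least 5 CPM in control cells. GSTA4 was also among the wide ones, at 1.25 and the 97th percentile (97.0), whereas GSTO1 spanned 0.06 (1.9).

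**Figure D1:**
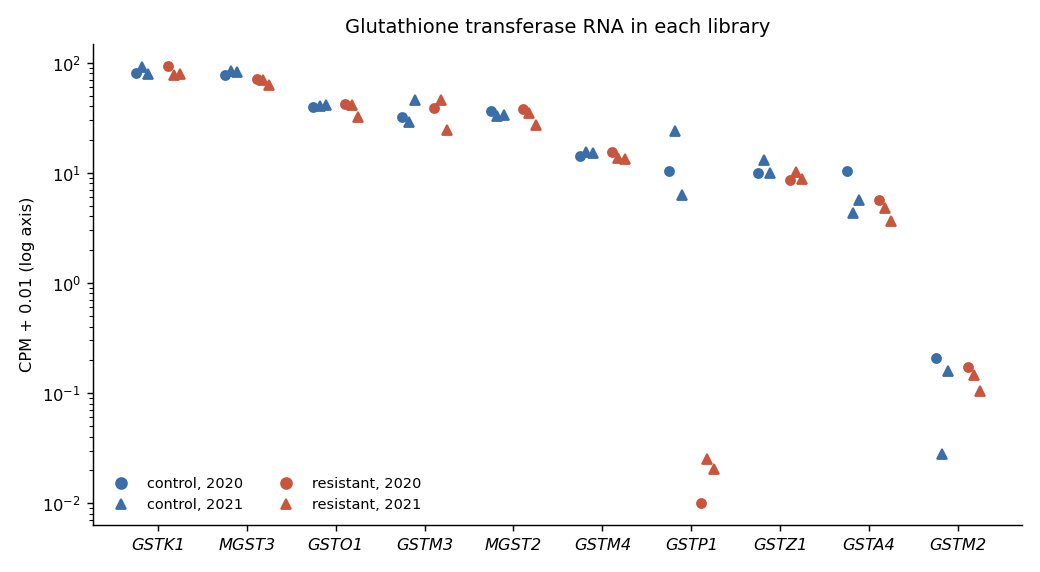
CPM of each listed transferase in the 6 libraries, with 0.01 added for the log axis; circles are 2020 libraries, triangles 2021 libraries, blue control and red resistant. GSTP1 drops from 6.27 to 24 CPM in control libraries to at most 0.015 CPM in resistant ones, while those of the other genes overlap between the groups except for MGST3.

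None of the relatives was called higher in the resistant line. Of the 9 members with enough counts to be tested, 1 was called (GSTP1, lower) and none higher. Of all 13950 tested genes 11.7% were called, 6.23% higher and 5.48% lower (edgeR quasi-likelihood fit including batch, at a Benjamini-Hochberg adjusted p of 0.05). Of the 8 tested relatives none was called with edgeR, DESeq2 or limma voom. With edgeR, 1 of the 8 (MGST3) had an unadjusted p under 0.05, in the lower direction, a share near that of all tested genes, of which 12.7% were lower and 13.6% higher at this threshold. Their median log2 difference was -0.09 and that of all tested genes 0. Since the list was made with this comparison known, the counts are a description. The size of each difference is given below with its standard error (SE) and 95% interval, which shows how large a rise the libraries could still hide.

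Among the mu class, whose genes lie side by side on chromosome 1, GSTM3 (109733937 to 109741038) was the most abundant. It stood at 31.8, 29 and 46.2 CPM in the parental libraries and 38.4, 46.1 and 24.6 in the resistant ones. High and low libraries occurred in both groups, the log2 difference was 0.03 ± 0.28 SE, and the interval ran from 0.637-fold to 1.63-fold. This was the widest interval of the 8 relatives. GSTM4 (109656099 to 109667727) was steadier, at 14.3, 15.5 and 15.2 CPM in the parental libraries and 15.4, 13.5 and 13.2 in the resistant ones. Its groups overlapped, the log2 difference was -0.103 ± 0.115 SE, and its interval ran from 0.776-fold to 1.12-fold. GSTM2 (109668057 to 109683997) was barely detected, with 8, 1 and 10 counts in control and 6, 9 and 9 in resistant libraries, too few for the test. Mu class genes are much alike in sequence, and how reads with several matches were counted is not given in the sources used, so reads may have moved among them.

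GSTA4, an alpha class enzyme that acts on the lipid peroxidation product 4-hydroxynonenal (chromosome 6, 52977953 to 52995284), was at 10.3, 4.29 and 5.61 CPM in the parental libraries and 5.68, 4.74 and 3.65 in the resistant ones. Control replicate 1 stood above all others, and the rest overlapped. The log2 difference was -0.44 ± 0.20 SE (0.535-fold to 1.01-fold), with -0.85 in 2020 and -0.24 in 2021. The 24 tested genes nearest to GSTA4 had a median log2 difference of -0.56, and 10 of them were called lower and 1 higher, and 21 of the 24 lay below 0.

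GSTK1 on chromosome 7 (143263441 to 143269115) was the most abundant member by CPM together with MGST3. Its values were 80.7, 90.3 and 78.6 CPM in the parental libraries and 93.3, 77.8 and 79.4 in the resistant ones, and the interval ran from 0.846-fold to 1.18-fold around a log2 difference of 0.00 ± 0.11 SE. GSTO1, an omega class enzyme that reduces dehydroascorbate and methylated arsenic (chromosome 10, 104254173 to 104267455), was at 39.1, 40.4 and 40.8 CPM in the parental libraries and 41.7, 41 and 31.9 in the resistant ones. Resistant replicate 3 was the only library of GSTO1 that stood apart, and the log2 difference was -0.07 ± 0.12 SE (0.786-fold to 1.15-fold). GSTZ1, which isomerises maleylacetoacetate in tyrosine breakdown (chromosome 14, 77321036 to 77331597), was at 9.99, 13.1 and 9.84 CPM in the parental libraries and 8.51, 10.1 and 8.84 in the resistant ones. Its groups overlapped in 1 library, and the log2 difference was -0.26 ± 0.14 SE (0.662-fold to 1.05-fold).

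Of the membrane enzymes, MGST3 on chromosome 1 (165631234 to 165656136), a microsomal transferase with peroxidase activity, was the only tested relative whose groups did not overlap. It was at 76.5, 84.4 and 81.6 CPM in the parental libraries and 70.9, 69.8 and 62.3 in the resistant ones, lower in all 3 of the latter. Over all tested genes 20.9% did not overlap between groups and 10.2% did so in the lower direction. The log2 difference of MGST3 was -0.26 ± 0.10 SE (0.718-fold to 0.976-fold), with -0.11 in 2020 and -0.33 in 2021. MGST2 on chromosome 4 (139665819 to 139754618), which can form leukotriene C4, was at 36.1, 32.9 and 33.4 CPM in the parental libraries and 37.9, 34.7 and 27.3 in the resistant ones. Its resistant libraries lay on both sides of the control libraries, and the log2 difference was -0.04 ± 0.12 SE (0.807-fold to 1.17-fold).

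**Figure D2:**
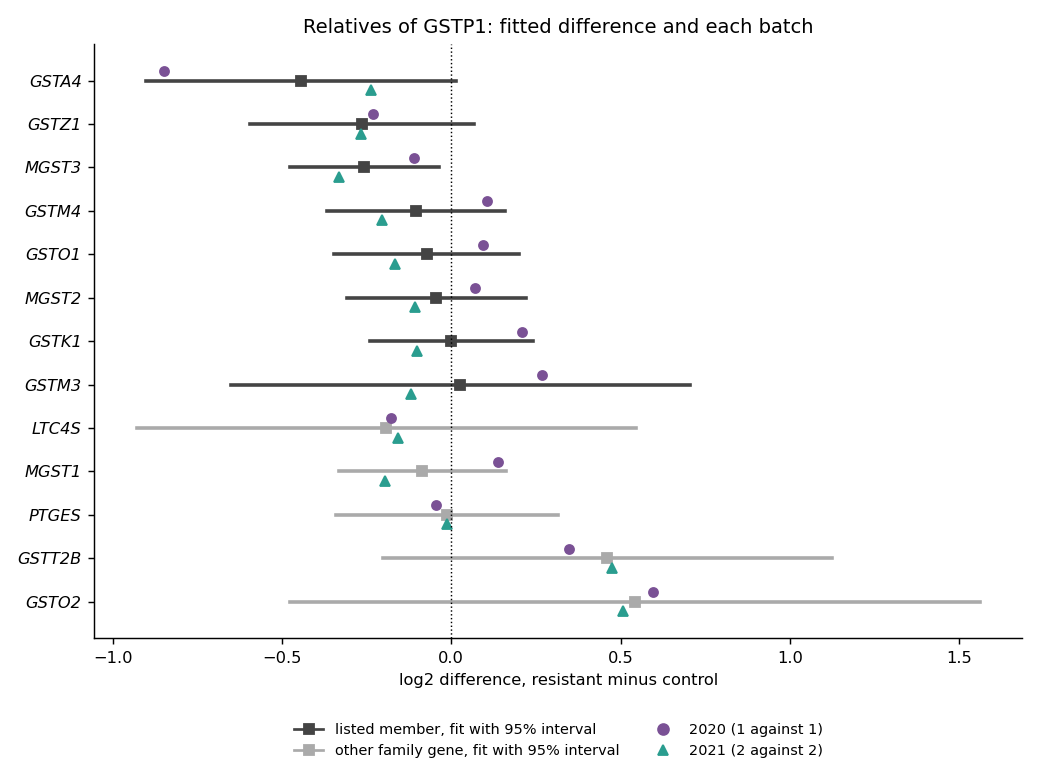
Fitted log2 difference (resistant minus control) with its 95% interval for the 8 tested relatives (dark) and 5 other tested family genes (grey); circles give the 2020 pair and triangles the 2021 libraries. The intervals of the 8 relatives include 0 except that of MGST3, and GSTO2 and GSTT2B, at under 1 CPM, have wide intervals.

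A further 16 genes of the family, listed by name, were looked up. GSTT1 is not analysed here. Of the 16, 15 were matched, 5 had no count in any library (GSTA3, GSTM5, GSTT2, GSTT4 and HPGDS) and 5 could be tested. None of the 5 was called by edgeR, and none had an unadjusted p under 0.05 (adjusted p 0.356 to 0.967). Over all tested genes 11.7% were called, so a count of 0 among so few genes carries little weight. MGST1, the microsomal enzyme that was the most abundant of the whole family, was at 174, 153 and 164 CPM in the parental libraries and 191, 139 and 137 in the resistant ones (log2 difference -0.09 ± 0.11 SE). PTGES, the prostaglandin E synthase of the same membrane family, was at 12.3 ± 1.8 CPM in the parental libraries and 12.2 ± 2.9 in the resistant ones (SD, n = 3 per group). GSTT2B and GSTO2 had the highest fitted differences, 0.46 ± 0.29 SE and 0.54 ± 0.45 SE on the log2 scale, but stayed at or below 0.673 CPM in every library. GSTT2B is nearly identical to GSTT2, so their reads cannot be told apart with confidence. LTC4S, the leukotriene C4 synthase, was at 0.325 to 0.522 CPM, with groups that overlapped. GSTA1, GSTA2, GSTA5, GSTM1 and ALOX5AP had 0 to 7 counts in each library.

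Levels were compared between genes per kilobase of the longest GENCODE 29 transcript. In control cells GSTO1 (38.1 ± 0.858 CPM per kilobase, SD, n = 3) stood above GSTK1 (30.9 ± 2.31) and MGST3 (26.1 ± 1.3), followed by MGST2 (19.2 ± 0.967), GSTM3 (8.82 ± 2.27) and GSTP1 (8.06 ± 5.52). GSTA4 (3.96 ± 1.85), GSTM4 (3.76 ± 0.157), GSTZ1 (2.05 ± 0.344) and GSTM2 (0.0281 ± 0.0216) were lower. GSTP1 could not be separated from GSTM3, GSTA4 or GSTM4 in this order, since its 3 libraries reached from 3.73 to 14.3. Per kilobase of coding sequence, a length chosen after the data were examined because the probes target exons, the order began with MGST3 (162 ± 8.1), GSTK1 (98.3 ± 7.34), MGST2 (77.4 ± 3.9), GSTO1 (55.5 ± 1.25) and GSTM3 (52.9 ± 13.6), and GSTP1 (21.5 ± 14.7) came after GSTM4 (22.9 ± 0.959). On either scale GSTP1 was a minor part of the summed level of the 10 members in the parental line. It made up 2.72% to 9.65% by longest transcript and 1.94% to 7.08% by coding length. Over all matched family genes its share by longest transcript was 1.69% to 6.28%. Levels of different genes also depend on the capture probes, whose part in this order was not tested.

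The summed level of the 9 relatives was on average no higher in the resistant line. It was 131.5, 133.7 and 133.4 CPM per kilobase of longest transcript in control and 136.8, 129.3 and 108.5 in resistant libraries. The groups overlapped, and resistant replicate 3 was the lowest. The mean difference was -8.03, beside a loss of GSTP1 of 8.06 to 0.005. Within batches the sum differed by 5.27 in 2020, where GSTP1 differed by -6.18, and by -14.7 in 2021, where GSTP1 differed by -8.99. MGST3 contributed -4.24 and GSTO1 -1.79 to the mean difference. On the log2 scale the sum differed by -0.10, and by -0.01 without resistant replicate 3. Sums over members chosen with results known are given with no test.

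**Figure D3:**
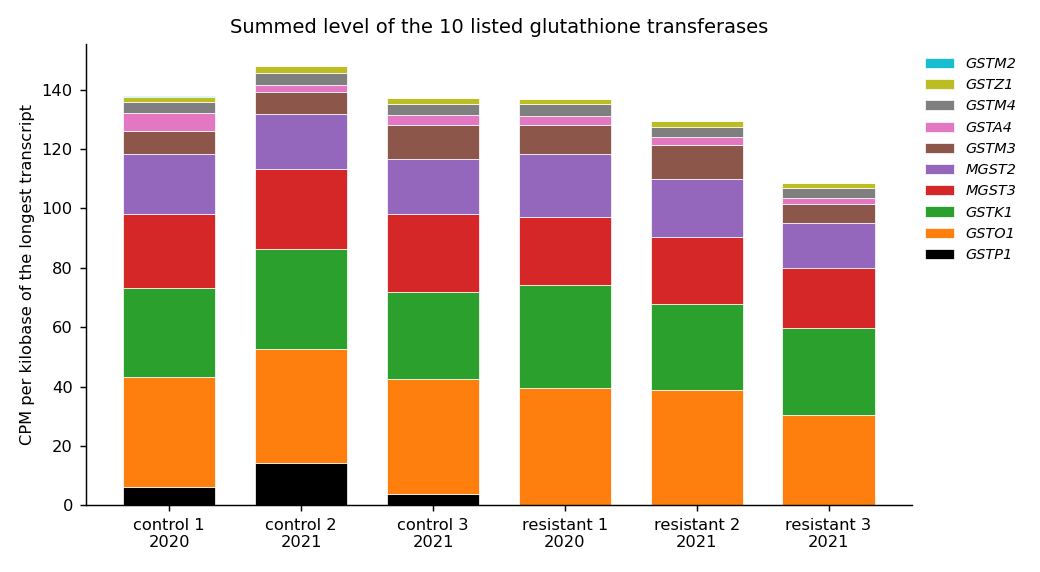
Stacked level of the 10 transferases in each library, in CPM per kilobase of the longest transcript, with the batch year under each bar. GSTP1 (black) is 3.73 to 14.3 in the control libraries and not visible in the resistant ones, and the other 9 add up to 108.5 to 136.8 in all libraries.

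The batch was tested as a comparison that did not guide the choice of members. GSTA4 was lower in 2021 than in 2020 (log2 difference -0.76 ± 0.21 SE, adjusted p = 0.0336, edgeR), and the other 8 tested members were not called. Over all tested genes 22.9% were called for the batch. The GSTA4 call ended without resistant replicate 3 (adjusted p = 0.0939) and with upper quartile scaling (0.0501). For GSTP1, whose resistant libraries hold next to no counts, the batch difference rested on 1 library. It was 0.56 ± 0.72 SE (adjusted p = 0.602, edgeR) with all libraries, 1.22 without control replicate 3 (adjusted p = 0.00267) and -0.67 without control replicate 2 (adjusted p = 0.131). With either left out, 1 control library per year remained, so these p-values cannot measure how control libraries of the same year vary.

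GSTP1 was 1 of 2 genes that passed from at least 1 CPM in every control library to at most 3 counts in every resistant library, out of 11705 genes at that control level. The other was LDHB, which encodes the B subunit of lactate dehydrogenase (chromosome 12), with 298, 451 and 95 counts in control and 2, 2 and 0 in resistant libraries (ratio 257, 95% counting interval 100 to 947). No gene went the other way. By the correlation of log2 CPM over the 6 libraries, the 5 tested genes most like GSTP1 were CRABP1 (r = 0.9984), SDC1 (0.998), WDR13 (0.9963), MCTP2 (0.9963) and TRPV6 (0.9961). The 6 points form 2 groups, so these values mostly restate the separation of the lines. CRABP1, a retinoic acid binding protein, had 24, 60 and 38 counts in control libraries and MCTP2, a membrane protein with C2 domains, had 26, 91 and 48. Neither had a count in any resistant library, so that their levels were at least 49.6-fold and 67.1-fold higher in control cells (against 3 counts over the resistant group). SDC1, WDR13 and TRPV6 were 1.43-fold to 2.07-fold lower and kept at least 272 counts in every library. The promoter windows of LDHB, CRABP1 and MCTP2 held 14, 25 and 31 CpG dinucleotides. That of MCTP2 (chr15:94231311-94231610) belongs to a start inside the gene, not to its outermost start.

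Most genes around GSTP1 were not called, but a larger share was lower than over all genes. Of the 5 tested genes on either side, which span 370 kb, 3 were called lower and none higher, where 5.48% of all tested genes were called lower. In 5 of these 10 all resistant libraries were below all control libraries, as in 10.2% of all tested genes. ACY3, an aminoacylase that acts on mercapturic acids, the end products of glutathione conjugation, lies 58.7 kb from GSTP1 (distances are between lowest coordinates). It fell 3.38-fold, from 1.91, 2.77 and 1.7 CPM to 0.673, 0.54 and 0.675 CPM (log2 difference -1.76 ± 0.28 SE, adjusted p = 0.00631, edgeR). ALDH3B2, an aldehyde dehydrogenase gene 78.3 kb away, fell 1.9-fold from 362 ± 71.4 to 190 ± 25.5 CPM (SD, n = 3 per group; adjusted p = 0.00969, edgeR), a call that ended without resistant replicate 3 (0.0571). CORO1B, an actin-binding coronin on the other side, fell 1.52-fold (adjusted p = 0.0465, edgeR). Its call ended with the replicate number as a block (0.0532) and on leaving out any 1 resistant replicate (up to 0.194). It also ended without the batch term (0.187), with upper quartile scaling (0.0501) and in 2021 alone (0.0501). The same held without robust estimation (0.0524) and in limma voom (0.0555). The nearest tested genes, CDK2AP2 and NDUFV1, had log2 differences of -0.28 ± 0.17 SE and -0.25 ± 0.12 SE and were not called (adjusted p = 0.351 and 0.231, edgeR). Among 24 tested neighbours 5 were lower, the further 2 being PTPRCAP and RPS6KB2, named after their values were seen. PTPRCAP, at a mean of only 0.435 CPM in control libraries, overlaps CORO1B, at 186 CPM there, so reads of the 2 may be shared. The median log2 difference of the 24 was -0.23, and 19 were below 0.

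**Figure D4:**
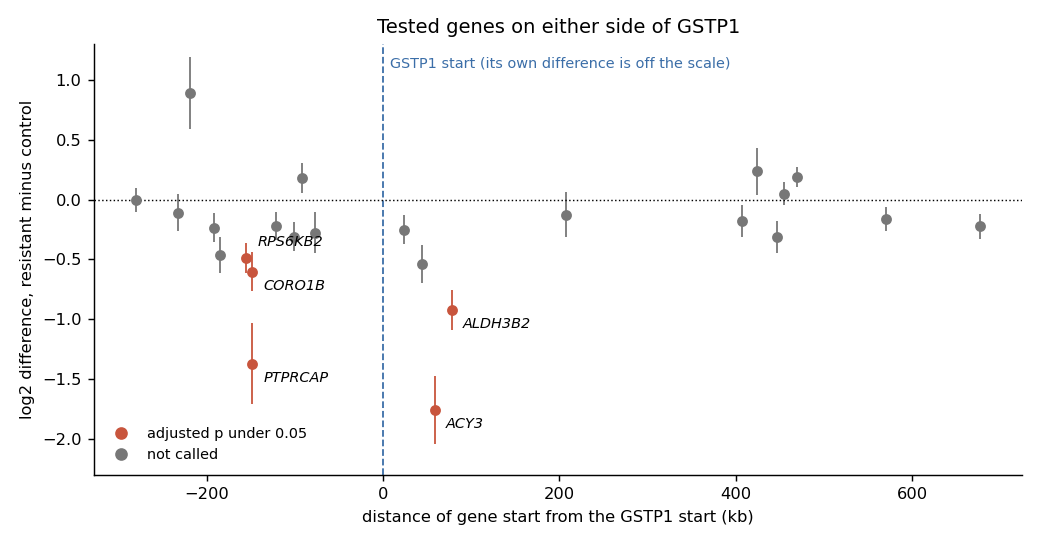
Log2 difference (resistant minus control) with its SE for the 12 tested genes on either side of GSTP1, against their distance from GSTP1 in kb; red marks an adjusted p under 0.05. The gene start on the axis is the lowest coordinate of each gene, whatever its strand. The 5 lower genes lie between -0.49 (RPS6KB2) and -1.76 (ACY3), and GSTP1 itself is off the scale.

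Around the transferases, 6 lists of genes were followed. In 4 of them are genes that make glutathione, use it or handle its conjugates, and of their 40 tested genes 2 rose and 5 fell. The other lists hold electrophile-detoxifying enzymes that are not transferases (18 tested) and proteins that share the transferase fold (9 tested). Over all 67 tested genes 3 rose and 9 fell. Of all tested genes 11.7% were called, 6.23% higher and 5.48% lower, and these shares also stand beside the counts of each list. The median log2 difference of the 67 was -0.05. Without the batch term 4 were called (ABCC4, ACY3, GLO1 and NQO2, which no other alternative ended either), and without resistant replicate 3, 6 were called. Of the 9 that fell, 5 lie on chromosome 6 below 60 Mb, where 207 of 355 tested genes fell and the median log2 difference was -0.62.

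Export of conjugates held 2 of the 3 rises. Among 14 tested genes of conjugate export and mercapturate formation 2 rose and 2 fell (median log2 difference -0.02). ABCC1, the multidrug resistance protein that exports glutathione conjugates, rose 1.62-fold, from 11.1, 9.53 and 10 CPM to 16.5, 15.6 and 17.3 CPM (log2 difference 0.69 ± 0.12 SE, adjusted p = 0.00685, edgeR). All resistant libraries were above all control libraries, and the call ended without resistant replicate 3 (0.0534). ABCC4, an exporter of the same family, rose 2.13-fold to 52.1 ± 4.76 CPM (SD, n = 3; adjusted p = 0.00302, edgeR). GGT1, which starts the breakdown of glutathione and its conjugates outside the cell, fell 1.45-fold from 35 ± 6.82 to 24.4 ± 7.24 CPM (SD, n = 3 per group; adjusted p = 0.0181, edgeR). That call was lost on leaving out either 2020 library or resistant replicate 3 (up to 0.11) and in 2021 alone (0.106). GGT1 has close copies in the genome with which reads may be shared. ACY3, described above, was the second of the list that fell.

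Glutathione synthesis and cysteine supply showed 1 fall and no rise among 11 tested genes (median log2 difference 0.08). GCLC, the catalytic subunit of the rate-limiting ligase, fell 1.34-fold from 132 ± 28.4 to 102 ± 38.9 CPM (SD, n = 3 per group; adjusted p = 0.0482, edgeR). The GCLC groups overlapped, and its call ended with the replicate number as a block (adjusted p = 0.065) and in limma voom (0.0523). It ended on leaving out any library except control replicate 1 (up to 0.227). In edgeR it also ended with upper quartile scaling (0.0674), a mean of 1 CPM (0.0577) and no robust estimation (0.054). Of 9 tested peroxidases, reductase and glutaredoxins (median log2 difference -0.17) only GLRX2, the mitochondrial glutaredoxin, was called. It fell 1.5-fold from 28.3 ± 2.7 to 18.9 ± 2.87 CPM (SD, n = 3 per group; adjusted p = 0.0102, edgeR), a call that ended without resistant replicate 2 or 3 (0.0617 and 0.0655).

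Other users of glutathione numbered 6 tested genes (median log2 difference -0.31), of which only GLO1 was called, as a fall. In 4 of the 6, GLO1 among them, all resistant libraries were below all control libraries, as in 10.2% of all tested genes. GLO1, the glyoxalase that removes methylglyoxal, went from 150, 126 and 121 CPM to 84.9, 72.9 and 59.8 CPM, a 1.83-fold fall (adjusted p = 0.00236, edgeR). Its 24 nearest tested genes on chromosome 6 had a median log2 difference of -0.79, and 18 of them fell. Among 18 tested electrophile-detoxifying enzymes outside the family 1 rose and 2 fell (median log2 difference -0.02). ALDH1A3, a retinaldehyde dehydrogenase, rose 1.66-fold from 375 ± 48.7 to 636 ± 187 CPM (SD, n = 3 per group; adjusted p = 0.00717, edgeR), a call lost in 2021 alone (0.0585) or on leaving out either 2020 library (up to 0.0637). NQO2, a quinone reductase on chromosome 6, fell 1.96-fold from 49 ± 1.34 to 25.2 ± 3.55 CPM (adjusted p = 0.00224, edgeR). AKR1C3, an aldo-keto reductase with related genes beside it, fell 2.54-fold (adjusted p = 0.0408, edgeR), but its groups overlapped. The AKR1C3 call ended with the replicate block (0.0896) and on dropping replicate 2 of either line or resistant replicate 3 (up to 0.144). It also ended with upper quartile scaling (0.0522) and with all genes unfiltered (0.114).

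Proteins that share the transferase fold without being classical transferases had 2 falls among 9 tested genes (median log2 difference -0.10), both on chromosome 6. CLIC5, a chloride intracellular channel protein, fell 2.02-fold (adjusted p = 0.0329, edgeR; 0.0559 with the replicate block), and its call was lost on dropping replicate 2 of either line or resistant replicate 3 (up to 0.161). EEF1E1, a scaffold protein of the aminoacyl-tRNA synthetase complex, fell 1.53-fold from 31.3 ± 4.24 to 20.4 ± 3.03 CPM (SD, n = 3 per group; adjusted p = 0.00616, edgeR). The 24 tested genes nearest to each of CLIC5, EEF1E1, GCLC and NQO2 had median log2 differences of -0.56 to -0.61. The 4 genes themselves were at -1.01, -0.62, -0.42 and -0.97, in that order. What part the position plays was not tested.

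**Figure D5:**
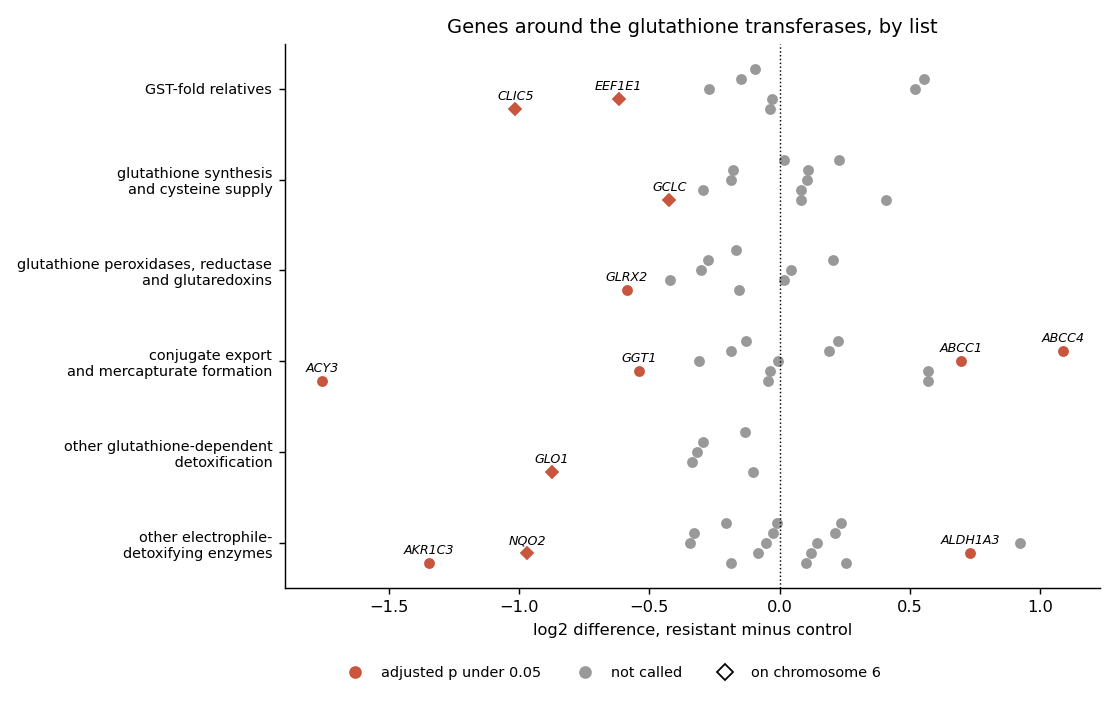
Log2 difference (resistant minus control) of the 67 tested genes of the 6 lists; red marks an adjusted p under 0.05 and diamonds mark genes on chromosome 6. The 3 rises are ABCC4, ALDH1A3 and ABCC1, and 5 of the 9 falls are diamonds.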

How the data were processed

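The authors deposited raw counts per Entrez gene ID, 1 column per library, and all columns were used. Per the submitters' processing notes, Trimmomatic 0.38, STAR 2.7.8a, featureCounts and GRCh38 were used. Per the labels' protocols, libraries were captured with exome probes, so levels of different genes also depend on the probes. For strand and multi-mapping, settings are not given in the sources used. Names and positions came from RefSeq (GRCh38.p14), which matched 27745 of 28395 IDs.

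Genes were kept by filterByExpr (13950), scaled by TMM and tested with edgeR 4.0.16 (robust quasi-likelihood, batch as a term), with Benjamini-Hochberg adjustment over all tested genes. SE were derived from the F statistic, and log2 CPM used a prior count of 2. Members and lists were chosen with earlier results of these data known. Named are all members, family genes with counts, up to 2 risen and 2 fallen genes per list at 1 CPM or more, 5 neighbours of GSTP1 on either side, the 5 genes most like it and those lost as it was. On simulated counts for this comparison (13950 genes, 200 changed) the test recovered 46.7% of 1.5-fold and 76% of 2-fold changes. Of its calls 13.5% were false, more than the adjusted p threshold of 0.05 aims at. The simulated counts held no batch effect, whereas 22.9% of the tested genes were called for the batch in the data. Whether replicates came from separate cultures is not labelled, and p-values then reflect only library-to-library spread, possibly technical.

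Deviations of same-numbered control and resistant libraries from their group means correlated across genes at 0.73, 0.143 and 0.153, so the number was also fitted as a replicate block that takes up the batch. Pair 1 shares the 2020 label, and among the 2021 libraries correlations were higher between unlike numbers (0.571 and 0.478). Alternatives were upper quartile scaling, size factors of DESeq2, all genes unfiltered, a mean of 1 CPM, DESeq2 1.42.0, limma voom (limma 3.58.1), no batch term, the block, 2021 alone, each replicate left out, other gene lengths and, added after the data were examined, no robust estimation.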

Additional observations from a re-analysis of the deposited data

How the results depend on the processing

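GSTP1 was chosen for its difference, so its calls are no support. It was the only member called, and leaving out a replicate gave 0 to 1 members, with 0 without resistant replicate 1, where the fitted log2 difference was -10.06 against -10.21 with all libraries. No relative was called under any alternative run. With the replicate block 1303 genes, 1 member, 9 pathway genes and 2 neighbours of GSTP1 were called, against 1633, 1, 12 and 3, and the calls it ended are given with the results. Without the batch term 362 genes and 4 pathway genes were called, and in 2021 alone 1012 genes. Leaving out a replicate gave 617 to 1985 genes, 6 to 13 pathway genes and 1 to 4 neighbours. The summed level of relatives differed by -0.17 to -0.01 (log2) on leaving out a replicate and by -0.12 per coding length. For the batch, upper quartile scaling called 0 members, leaving out a replicate 0 to 2, and GSTP1 turned to -0.67 without control replicate 2 and to 1.22 without control replicate 3. Of 144 member differences under the alternatives, 139 moved by less than the pooled SD of single libraries within a group. That limit is wide, and differences that changed sign stayed within it, so the count does not show stability. GSTM3, at 0.03 with all libraries, was at -0.23 without resistant replicate 2 and at 0.27 without resistant replicate 3. Depth limits GSTM2, which had at most 10 counts in a library.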
